A study of Mus musculus with 4 samples.

Results

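The 70 guidance genes described here encode the ephrins, semaphorins, Slits and netrins and their receptors. The rule that gathers them uses gene names and no measured value, and takes the protein-coding rows whose symbols begin with the stems of the ephrin (Efna, Efnb), Eph receptor, class 3 to 7 semaphorin, plexin, Slit, Robo, neuropilin, netrin, Unc5 and Dcc families, which are 70 of the 28193 genes of the deposited table. The name gave 35 ligands (8 ephrins, 20 semaphorins, 3 Slits and 4 netrins) and 33 receptors (14 Eph receptors, 9 plexins, 2 neuropilins, 3 Robos and 5 genes of the DCC and Unc5 family). The remaining 2 members, Unc50 and Unc5cl, share the name stem but are neither guidance ligands nor receptors. All members were measured by fosTRAP-seq, in which ribosomes carrying HA-tagged Rpl22 are pulled out of tissue and the RNA bound to them is sequenced. Male C57BL/6J mice of 3 to 5 months carried a viral c-Fos-driven, tamoxifen-dependent Cre and a Cre-dependent HA-Rpl22 (RiboTag) in CA1, which the labels give as genotype cFos-Cre:Ribotag and tissue dorsal hippocampus. All mice, NSD mice included, received 4-hydroxytamoxifen and were sleep deprived for 5 h on day 0, so both groups carry the tag in cells that were active then. On day 7 a second 5 h deprivation was given to the SD mice only, tissue was taken at ZT 5 in both groups, and the CA1 of 5 mice was pooled into each library, with 2 libraries per group. The tag marks cells by Fos promoter activity and not by cell type, each library is a pool of mice, and in such bulk RNA fewer tagged cells of a type and less RNA per cell cannot be told apart.

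Guidance molecules steer growing axons by attraction or repulsion and in the adult brain remain at synapses, on dendritic spines and on blood vessels. Ephrins are membrane-bound ligands of the Eph receptor tyrosine kinases and can also signal backwards into the cell that carries them. Semaphorins signal through plexins, with neuropilins as co-receptors for most class 3 members, Slits signal through Robo receptors, and netrins through DCC and the Unc5 receptors. In the hippocampus EphA4 and ephrins at the contact between spines and astrocytes are known regulators of spine shape and plasticity.

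The libraries held 153511705 to 195910235 counts each, of which the members took 0.505% to 0.557%. Markers of CA1 and other excitatory neurons were abundant, with Camk2a at 4089 to 4378 CPM and the glutamate transporter gene Slc17a7 at 693 to 808 CPM, where CPM denotes TMM-scaled counts at a library total of 1000000. Markers of other cells were present too, with the interneuron gene Gad1 at 311 to 332 CPM and the myelin gene Mbp at 880 to 1073 CPM. No library of unpurified tissue is in the series, so RNA carried over from untagged cells cannot be told apart from RNA of tagged cells. The SD libraries were tested against the NSD libraries with the quasi-likelihood test of edgeR across the 22338 genes that exceeded 5 counts in each library, and a gene was called at a Benjamini-Hochberg adjusted p under 0.05 with a fold change over 1.2. The labels put NSD 1 and SD 1 in batch 1 and NSD 2 and SD 2 in batch 2, and values from the same test with the batch as a block are given where they change a call.

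Of the 70 members, 69 passed the count filter and were tested. Unc5cl did not pass, with 1, 10, 9 and 0 counts in NSD 1, NSD 2, SD 1 and SD 2. Levels between genes are compared per kilobase of exon, averaged over the 4 libraries. On that scale the members ran over several orders of magnitude, with 14 of them, 6 ligands and 8 receptors, at 10 CPM per kilobase or more and 12 below 1. The receptor Epha6 was the highest at 63.0 CPM per kilobase, followed by Epha4 at 47.6, the membrane-anchored semaphorin Sema7a at 44.1, the plexin Plxna4 at 33.7 and the ephrin Efnb3 at 32.4. Library ranges overlapped between Epha4 (40.6 to 56.4) and Sema7a (42.2 to 46.0) and between Plxna4 (31.5 to 35.6) and Efnb3 (30.7 to 35.4). These ranges pool NSD and SD libraries, and that of Epha4 includes its lower values in SD. The order of these neighbours within each library was not tested. Of the 10 highest members, 9 stayed among the 10 highest when the longest transcript replaced the union of exons as the length. At the other end, Efna4, Epha2, Epha1 and Sema3g were below 0.15 CPM per kilobase.

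**Figure D1:**
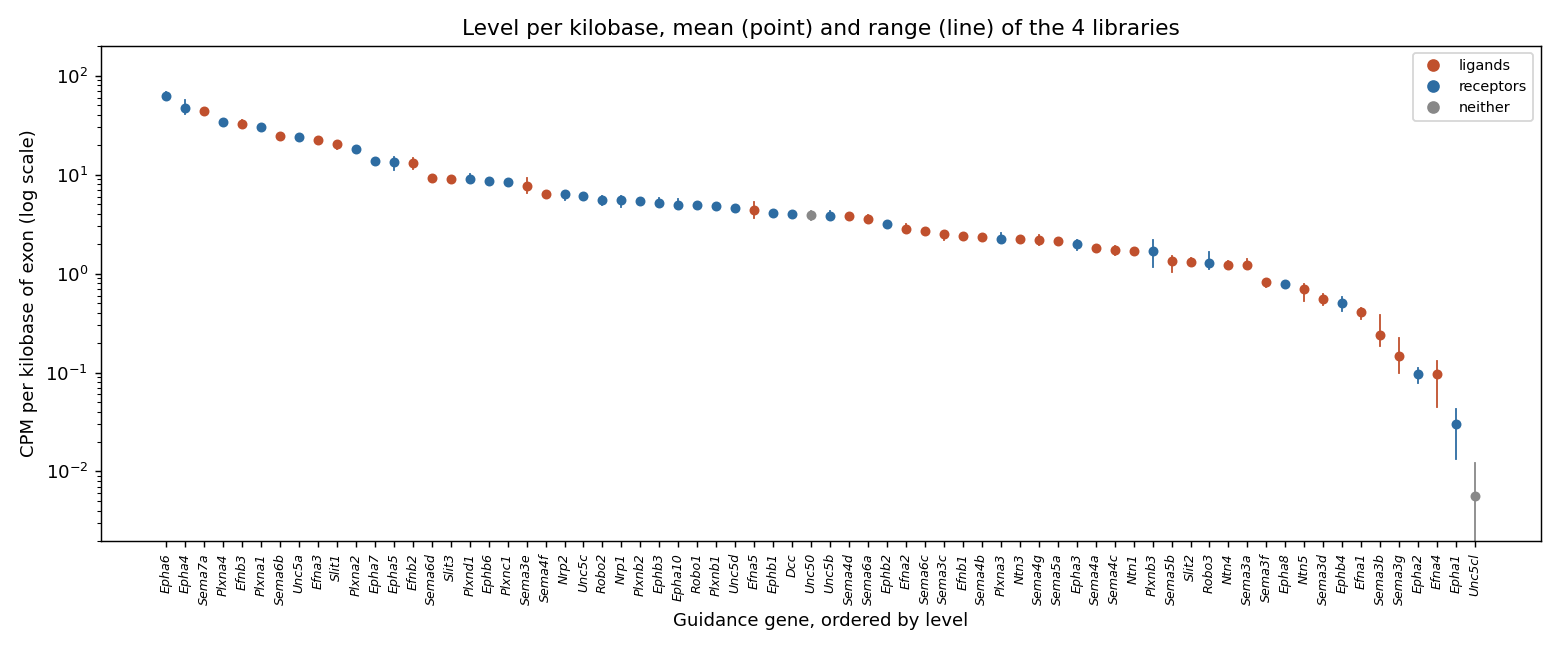
Level of the 70 members in CPM per kilobase of exon on a log axis, ordered from high to low, with ligands in orange, receptors in blue and the 2 members that are neither in grey. Points are means of the 4 libraries and lines their range (the line of Unc5cl runs below the axis, since 1 library had 0 counts). Epha6, Epha4 and Sema7a lead, and 14 members reach 10 CPM per kilobase.

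In SD against NSD, 1 member rose and 0 fell in edgeR's test without the block. The background was 0.77% of all 22338 genes called higher and 2.33% called lower, and among the 15551 protein-coding genes 0.952% and 0.54%, so that 1.45% of members called higher and 0% called lower are close to the background in both directions. At an unadjusted p under 0.05, 6 members lay above and 5 below NSD, or 8.7% and 7.25% of members, beside 6.86% and 12.2% of all genes and 8.86% and 5.76% of protein-coding genes. In the fit that takes the batch as a block, 3 members were called higher (Efna5, Efnb2 and Sema5b) and 4 lower (Epha4, Sema3e, Plxnb3 and Robo3), against 2.99% and 8.47% of all genes and 3.77% and 3.29% of protein-coding genes in that fit. DESeq2 called Efna5 and Efnb2 higher and Epha4 lower, against 2.99% and 5.79% of all genes and 3.91% and 1.79% of protein-coding genes. The log2 fold change was under 0.1 in size for 35 of the 69 members and ran from -0.87 to 0.43.

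**Figure D2:**
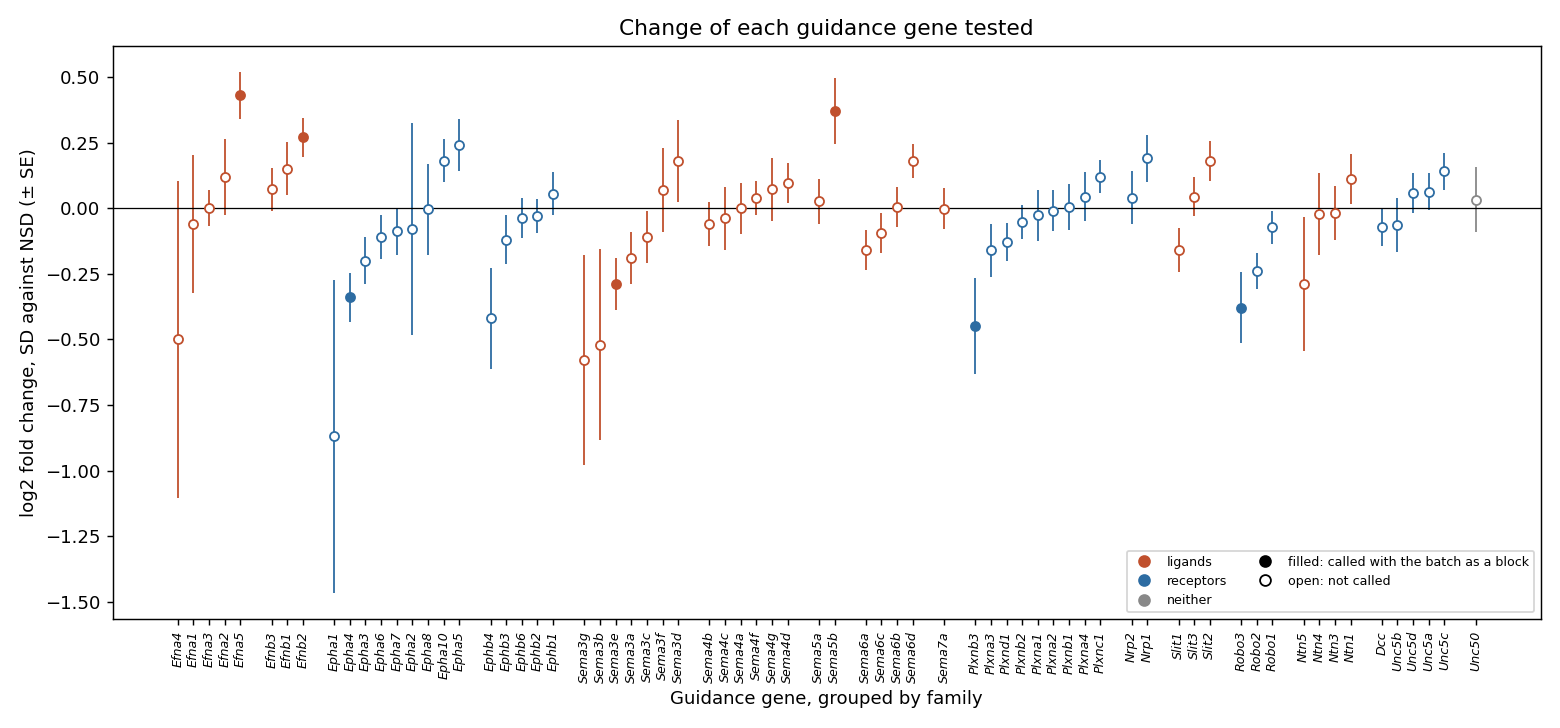
Log2 fold change of SD against NSD for the 69 members tested (vertical axis, edgeR without the block, bars are the standard error), grouped by family along the horizontal axis. Filled points mark the 7 members called with the batch as a block, which include Efna5, the only one called without it.

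Efna5, which encodes the GPI-anchored ephrin-A5, was the member that rose. Its level was 19.1 and 20.5 CPM in NSD 1 and NSD 2 and 28.1 and 25.1 CPM in SD 1 and SD 2. Both SD values exceeded both NSD values. The log2 fold change was 0.43 with a standard error of 0.0888 (edgeR adjusted p = 0.0465), a 1.34-fold rise, and the adjusted p was 0.00317 with the block and 8.01e-04 in DESeq2. The call was lost at an adjusted p of 0.0774 without NSD 1 and of 0.0915 without SD 1, with log2 fold changes of 0.40 and 0.34. It was also lost with other sets of genes entered, where edgeR's adjusted p ran from 0.0545 to 0.0757. Per kilobase of exon Efna5 stood at 4.41 CPM, in place 32 of the 70 members.

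Efnb2, the transmembrane ephrin-B2, followed with 82.1 and 90.2 CPM in NSD and 101 and 107 CPM in SD, again without overlap of the groups. Its log2 fold change of 0.27 (standard error 0.074) was not called by edgeR without the block (adjusted p = 0.0899), and it was called higher with the block (adjusted p = 0.00508) and by DESeq2 (adjusted p = 0.0101). Over the 8 ephrins the median log2 fold change was 0.097 and 5 lay above 0, while over all genes tested it was -0.016 and 47.2% lay above 0 (54.2% of protein-coding genes). Efnb1 was low, at under 11 CPM in every library, with a log2 fold change of 0.15 (adjusted p = 0.497). The 2 ephrins with the highest level per kilobase, Efnb3 and Efna3, had overlapping groups and log2 fold changes of 0.072 and -5.9e-04. Efna4 had the largest value of the ephrin family below 0 (-0.50, standard error 0.604), from under 0.3 CPM in every library, and 10.3% of its exon bases lie opposite another gene with 405% of its count.

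Epha4 encodes an Eph receptor that binds ephrins of both classes, ephrin-A5 and ephrin-B2 among them. It was the second highest member per kilobase, at 412 and 464 CPM in NSD 1 and NSD 2 and 334 and 359 CPM in SD 1 and SD 2. Both SD values were under both NSD values. The log2 fold change was -0.34 with a standard error of 0.0927, not called by edgeR without the block (adjusted p = 0.0888) and called lower with it (adjusted p = 0.00531) and by DESeq2 (adjusted p = 0.00455). Within the batches the log2 ratio of SD to NSD was -0.30 and -0.37. Of the 7 markers of CA1 and excitatory neurons, 4 lay below 0 and 3 above. Wfs1 was at 390 and 440 CPM in NSD and 279 and 355 in SD, Fibcd1 at 185 and 217 and at 150 and 165, and Neurod6 at 123 and 152 and at 103 and 113, and these 3 were called lower with the block and by DESeq2. Camk2a had a log2 fold change of -0.026, while Mpped1, Pou3f1 and Slc17a7 were at 0.14, 0.082 and 0.077. The summed level of the 7 markers was 6255 and 6585 CPM in NSD and 6039 and 6503 CPM in SD, and the part of this in the value of Epha4 was not tested.

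The promoters of Efna5, Efnb2 and Epha4 are shown because these 3 genes, a pair of ligands and a receptor that can bind both, were the members called by more than one of the tests. Each window holds 250 bases before and 50 after the RefSeq start site (RefSeq sequences, table build GRCm38.p6), was found once by exact match on its GRCm39 chromosome and is written 5′ to 3′ on the gene's strand. All 3 genes lie on the minus strand, at chr17:63188263-63188562 (Efna5), chr8:8711193-8711492 (Efnb2) and chr1:77491676-77491975 (Epha4), and in each the start site is the 5′ end of the first exon in the annotation. Capitals mark matches, on either strand, to the cyclic AMP response element (CRE) TGACGTCA and to its half-site TGACG, which the full CRE contains, to the AP-1 site TGANTCA, the E-box CACGTG and the GC box GGGCGG.
Efna5: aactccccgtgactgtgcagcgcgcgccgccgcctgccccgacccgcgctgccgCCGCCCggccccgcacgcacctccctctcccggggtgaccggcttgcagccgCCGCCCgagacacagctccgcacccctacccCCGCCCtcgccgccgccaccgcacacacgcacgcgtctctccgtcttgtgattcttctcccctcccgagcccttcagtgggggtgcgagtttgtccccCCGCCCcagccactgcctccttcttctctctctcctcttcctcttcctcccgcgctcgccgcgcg
Efnb2: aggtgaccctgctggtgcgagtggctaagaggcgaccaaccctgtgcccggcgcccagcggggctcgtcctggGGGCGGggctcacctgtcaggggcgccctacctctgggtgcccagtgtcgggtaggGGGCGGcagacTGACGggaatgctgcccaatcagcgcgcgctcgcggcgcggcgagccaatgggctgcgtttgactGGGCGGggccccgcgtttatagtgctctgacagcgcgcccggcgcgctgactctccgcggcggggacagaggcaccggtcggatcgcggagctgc
Epha4: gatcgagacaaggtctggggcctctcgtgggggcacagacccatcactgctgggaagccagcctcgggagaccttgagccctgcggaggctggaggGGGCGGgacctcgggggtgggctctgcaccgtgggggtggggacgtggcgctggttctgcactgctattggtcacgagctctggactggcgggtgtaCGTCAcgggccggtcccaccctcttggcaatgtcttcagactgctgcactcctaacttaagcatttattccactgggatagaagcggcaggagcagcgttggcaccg

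The Efna5 window held 4 GC boxes and no match to the other motifs. The Efnb2 window held 3 GC boxes and a CRE half-site starting 110 bases before the start site. The Epha4 window held 1 GC box and a CRE half-site on the reverse strand starting 57 bases before it. Neither half-site was part of a full CRE. The half-site occurred in 20.8% of the 32851 windows in the table, the full CRE in 1.79%, the AP-1 site in 7.81%, the E-box in 7.15% and the GC box in 35.7%. The 60 members found in the table by symbol had 76 windows, of which 13.2% held the half-site, 1.32% the full CRE, 3.95% the AP-1 site, 6.58% the E-box and 72.4% the GC box. A match describes letters in the window and not a bound site.

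Of the 14 Eph receptors, 3 lay above 0 and 11 below, with a median log2 fold change of -0.083, and edgeR without the block called 0 (2 at an unadjusted p under 0.05, Epha4 and Epha5). By the order of the libraries, 2 had both SD values above and 5 both below those of NSD, or 14.3% and 35.7% of the family, where all genes gave 22% and 27.5% and protein-coding genes 26.6% and 19.9%. With DESeq2's size factors 4 lay above 0 and 10 below, so the balance kept its direction. Without NSD 1 it was 6 and 8. Epha6, the most abundant member per kilobase, had 331 and 359 CPM in NSD and 309 and 333 CPM in SD (log2 fold change -0.11, adjusted p = 0.581). Epha5, another receptor of ephrin-A ligands, lay on the other side of 0. Its level was 233 and 275 CPM in NSD and 286 and 314 CPM in SD, and the groups did not overlap. Its log2 fold change of 0.24 (standard error 0.10) had an edgeR adjusted p of 0.234, and of 0.0254 with the block, where the fold change stayed under the 1.2 required, and the gene was singled out after its values were seen. Ephb4, the receptor of ephrin-B2 on venous endothelium, had 2.89 and 2.93 CPM in NSD and 2.09 and 2.26 CPM in SD (log2 fold change -0.42, adjusted p = 0.284). Epha1 had the largest log2 fold change of all members (-0.87, standard error 0.595), from under 0.2 CPM in every library, and it has 36.9% of its exon bases opposite Zyx, a gene with over 100 times its count.

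**Figure D3:**
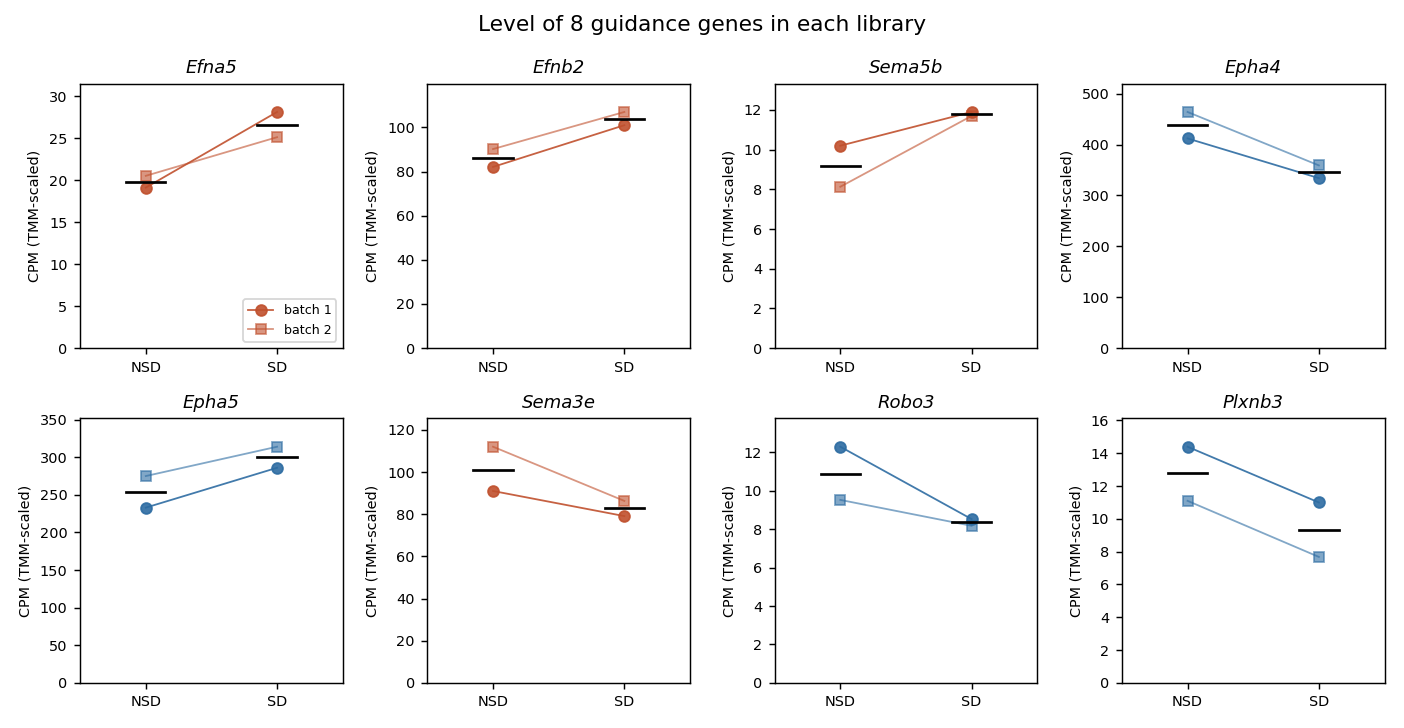
Level in CPM (vertical axes start at 0) of the 7 members called with the batch as a block and of Epha5 in the NSD and SD libraries. Lines join the libraries of a batch and black bars are group means. The SD points of Efna5, Efnb2, Sema5b and Epha5 lie above the higher NSD point, and those of Epha4, Sema3e, Robo3 and Plxnb3 below the lower NSD point.

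Semaphorins did not move in one direction. Of the 20, 9 lay above 0 and 11 below, the median log2 fold change was -0.0011, and edgeR without the block called 0 (3 had an unadjusted p under 0.05, of which 2 were higher). Sema5b was called higher and Sema3e lower with the block, and DESeq2 called 0. Sema3e, a secreted semaphorin that binds plexin-D1, had 91.0 and 112 CPM in NSD and 79.1 and 86.3 CPM in SD. Its log2 fold change was -0.29 (standard error 0.0999), with an edgeR adjusted p of 0.15 and of 0.00525 with the block, while without single libraries it ran from -0.14 (without NSD 2, not called) to -0.40 (without NSD 1, called lower). Plxnd1, its receptor, had 79.8 and 71.5 CPM in NSD and 68.7 and 69.3 CPM in SD (log2 fold change -0.13, adjusted p = 0.386). Sema5b, a transmembrane semaphorin, had 10.2 and 8.13 CPM in NSD and 11.9 and 11.7 CPM in SD. Its log2 fold change was 0.37 (standard error 0.126), with an edgeR adjusted p of 0.157 and of 0.0269 with the block, and it was 0.21 without NSD 2 and 0.57 without NSD 1, called in neither.

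The Sema3e promoter is shown as that of the ligand called lower with the block and as a contrast to the windows above, with an E-box starting at base 24 counted from the start site as base 1 and 2 GC boxes (chr5:14075040-14075339 of GRCm39, plus strand, capitals as above).
Sema3e: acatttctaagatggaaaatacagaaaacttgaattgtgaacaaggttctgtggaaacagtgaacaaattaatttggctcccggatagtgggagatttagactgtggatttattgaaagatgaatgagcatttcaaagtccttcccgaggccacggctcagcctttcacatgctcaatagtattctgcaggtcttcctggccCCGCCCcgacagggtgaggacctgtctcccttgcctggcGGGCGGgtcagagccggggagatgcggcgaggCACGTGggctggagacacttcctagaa

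The most abundant semaphorins per kilobase had nearly equal means in both groups. Sema7a had 140 and 153 CPM in NSD and 140 and 152 CPM in SD, and Sema6b had 157 and 170 CPM and 158 and 169 CPM, with log2 fold changes of -0.002 and 0.0036 and standard errors of 0.0787 and 0.0773. Sema6d, a class 6 transmembrane semaphorin, was higher in both SD libraries, with 98.2 and 100 CPM in NSD and 110 and 115 CPM in SD. Its log2 fold change of 0.18 was not called (adjusted p = 0.17, and 0.0428 with the block, where its fold change was under 1.2). Sema4d and Sema4f, the class 4 members named for change and for level, had log2 fold changes of 0.095 and 0.040, and Sema4d has 13.7% of its exon bases opposite Secisbp2. Sema3g, known from arterial endothelium, was below 1.1 CPM in every library (log2 fold change -0.58, standard error 0.40), and its batches disagreed, with log2 ratios of 0.07 and -1.16.

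Among the 11 plexins and neuropilins, 5 lay above 0 and 6 below, and edgeR without the block called 0 (1 at an unadjusted p under 0.05, and 0 by DESeq2). Of the type A plexins, which bind class 3 and class 6 semaphorins, Plxna4, Plxna1 and Plxna2 were among the most abundant receptors per kilobase, and Plxna3 stood in place 45 of the 70 members. Plxna4 had 460 and 510 CPM in NSD and 479 and 520 CPM in SD (log2 fold change 0.043, standard error 0.0936). Plxnb3, which the oligodendrocyte lineage is known to express, was the plexin called lower with the block. It had 14.4 and 11.1 CPM in NSD 1 and NSD 2 and 11.0 and 7.68 CPM in SD 1 and SD 2. The SD libraries lay below the NSD libraries by a narrow margin, and the difference had the same sign within both batches (log2 ratios -0.39 and -0.54). Its log2 fold change was -0.45 (standard error 0.182), with an edgeR adjusted p of 0.219, of 0.00511 with the block and of 0.145 in DESeq2, while without single libraries it ran from -0.20 (without SD 2) and -0.23 (without NSD 1), neither called, to -0.73 (without SD 1), called lower. Of the 8 oligodendrocyte lineage markers, 3 lay above 0 and 5 below. Their summed level was 1909 and 1581 CPM in NSD and 1848 and 1756 CPM in SD, and their part in the value of Plxnb3 was not tested. Nrp1, a co-receptor of class 3 semaphorins, had 71.7 and 84.4 CPM in NSD and 85.5 and 93.2 CPM in SD (log2 fold change 0.19, adjusted p = 0.29, with values of 0.11 without NSD 1 and 0.32 without NSD 2), and Nrp2 had overlapping groups (log2 fold change 0.040).

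All 3 Robo receptors lay below 0, also under each other scaling and with each library left out, and their ligands did not share a direction. Robo2 had 139 and 145 CPM in NSD and 117 and 124 CPM in SD. Its groups did not overlap, and its log2 fold change of -0.24 (standard error 0.0697) had an edgeR adjusted p of 0.105, of 0.0153 with the block and of 0.0468 in DESeq2, in both of which the fold change was under 1.2. Robo3, a divergent Robo known from commissural axons, had 12.3 and 9.53 CPM in NSD and 8.53 and 8.18 CPM in SD (log2 fold change -0.38 ± 0.135 SE, adjusted p = 0.164 by edgeR), and was called lower with the block (adjusted p = 0.0308). Without NSD 1 its log2 fold change was -0.16 and without NSD 2 it was -0.56, called in neither. Robo1 had 89.9 and 93.5 CPM in NSD and 88.1 and 86.4 CPM in SD (log2 fold change -0.073). Of the ligands, Slit1, the most abundant per kilobase, had 195 and 194 CPM in NSD and 163 and 185 CPM in SD (log2 fold change -0.16, adjusted p = 0.344). Slit2 had 38.0 and 40.5 CPM in NSD and 42.5 and 46.7 CPM in SD (log2 fold change 0.18, adjusted p = 0.232), and Slit3 had overlapping groups (log2 fold change 0.044).

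No netrin and no member of the DCC and Unc5 family was called by edgeR with or without the block or by DESeq2, and in edgeR without the block 0 of them had an unadjusted p under 0.05. Unc5a, the most abundant of these receptors per kilobase, had 124 and 129 CPM in NSD and 128 and 137 CPM in SD (log2 fold change 0.062). Unc5c was above NSD in both SD libraries, with 106 and 115 CPM in NSD and 119 and 123 CPM in SD (log2 fold change 0.14, adjusted p = 0.347), and with the block and in DESeq2 its p before adjustment was under 0.05. The netrin receptor gene Dcc had overlapping groups, with a log2 fold change of -0.072. Ntn3 and Ntn5, the netrins named for level and for change, had log2 fold changes of -0.019 and -0.29, and both share exon bases with a neighbour, Ntn3 on the same strand with Tbc1d24 (921% of its count) and Ntn5 on the opposite strand with Sec1. Unc50, a protein of the secretory pathway, had a log2 fold change of 0.032.

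Ligands and receptors were set against each other as groups. Over the 35 ligands the median log2 fold change was -2.0e-04 (17 genes above and 18 below 0), and over the 33 receptors it was -0.054 (11 above and 22 below). Thus 48.6% of ligands and 33.3% of receptors lay above 0, beside 47.2% of all genes and 54.2% of protein-coding genes. Both SD libraries were above both NSD libraries for 8 ligands and 5 receptors, and below them for 7 ligands and 12 receptors, or 36.4% of receptors. Of protein-coding genes 26.6% had both SD libraries above and 19.9% both below, and of all genes 22% and 27.5%. Without NSD 1 the balance of the receptors was 17 above and 16 below 0, so it rested on that library. The share of the ligand and receptor counts held by ligands was 28.7% (95% Wilson interval 28.6% to 28.8%) in NSD 1, 28.3% (28.2% to 28.4%) in NSD 2, 29.2% (29.1% to 29.3%) in SD 1 and 29.1% (29.0% to 29.2%) in SD 2, with intervals that cover counting error only. The SD libraries were higher by 0.65 percentage points on average. With counts per kilobase the shares were 39.6% and 39.4% in NSD and 40.9% in both SD libraries. The receptors summed to 3651 and 3894 CPM in NSD and 3585 and 3786 CPM in SD. Of these sums, Epha4 alone held 412 and 464 CPM in NSD and 334 and 359 CPM in SD. The part of Epha4 in the higher ligand share was not tested. With 2 libraries against 2, no exact test of this share can pass 0.05, and none was made.

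**Figure D4:**
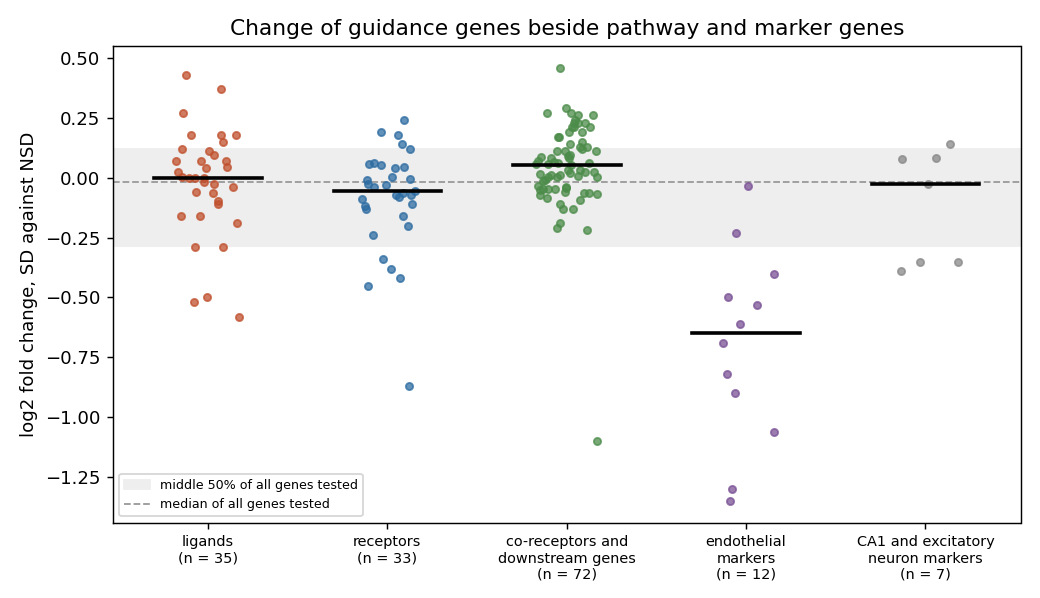
Log2 fold change of SD against NSD (vertical axis, edgeR without the block) for ligands, receptors, co-receptors and downstream genes, endothelial markers and CA1 and excitatory neuron markers. Points are genes, black bars medians, the grey band the middle 50% of all genes tested and the dashed line their median. The medians of ligands (-2.0e-04) and receptors (-0.054) lie inside the band, and that of the endothelial markers (-0.65) below it.

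The co-receptors and signalling genes that act beside or below these receptors were described as a list of 72 genes, all of which were tested. The list was chosen with earlier results of these data known, so its shares beside the background are descriptive only. Itsn1, an exchange factor for Cdc42 that acts downstream of EphB receptors, rose, with 281 and 271 CPM in NSD and 399 and 362 CPM in SD (log2 fold change 0.46 ± 0.0847 SE, adjusted p = 0.0385 by edgeR). It was the only gene of the list called without the block, or 1.39% of the list beside 0.77% of all genes, and at an unadjusted p under 0.05 there were 13 higher and 2 lower, or 18.1% and 2.78% of the list beside 6.86% and 12.2% of all genes and 8.86% and 5.76% of protein-coding genes. The call of Itsn1 was lost with no count filter, with filterByExpr and with protein-coding genes only (edgeR adjusted p from 0.0507 to 0.0628), and without NSD 2 or SD 1 (0.0561 and 0.059). The block gave 4 calls higher and 1 lower, or 5.56% and 1.39% of the list beside 2.99% and 8.47% of all genes and 3.77% and 3.29% of protein-coding genes. The higher ones were Itsn1, Flrt1, Pak1 and Dpysl3. Flrt1, an adhesion protein that binds Unc5 receptors, had 117 and 125 CPM in NSD and 143 and 148 CPM in SD (adjusted p = 0.00792 with the block). Pak1, a kinase activated by Rac and Cdc42, had 240 and 283 CPM in NSD and 303 and 323 CPM in SD (adjusted p = 0.0204 with the block). Dpysl3, a member of the collapsin response mediator family, had 110 and 115 CPM in NSD and 133 and 137 CPM in SD (adjusted p = 0.00765 with the block). Robo4, the Robo of endothelial cells, was called lower with the block at 1.30 and 2.20 CPM in NSD and 0.852 and 0.783 CPM in SD (adjusted p = 0.025). DESeq2 called the same 5 genes in the same directions, and in addition Ntng1, a membrane-anchored netrin relative, as higher. The list's median log2 fold change was 0.055 with 49 of 72 above 0, and over protein-coding genes the median was 0.018.

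Several members are also expressed by endothelium, and endothelial markers differed between the groups. All 12 endothelial markers lay below 0 with a median log2 fold change of -0.65, and their summed level was 62.9 and 84.1 CPM in NSD and 53.9 and 39.3 CPM in SD. Their median log2 ratio was -0.18 in batch 1 and -1.2 in batch 2, and 3 of the 12 had opposite signs in the batches. EdgeR called 0 of them (7 passed an unadjusted 0.05), and 6 were called lower with the block and 4 by DESeq2. Of the 7 members known from endothelium (Efna1, Efnb2, Ephb4, Sema3g, Plxnd1, Unc5b and Nrp1), 5 lay below 0 and 2, Efnb2 and Nrp1, above. The part of endothelial cells in the values of these 7 members, Efnb2 included, was not tested. All 8 mural cell markers lay below 0 too, with a summed level of 74.2 and 70.5 CPM in NSD and 66.1 and 54.0 CPM in SD.

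Within the batches, 23 of the 69 members were higher in SD in both and 24 lower in both, or 33.3% and 34.8%, beside 30.8% and 36.5% of all genes tested and 36.6% and 29.2% of protein-coding genes. Ligands were higher in both batches in 14 of 35 cases and lower in 9, and receptors higher in 9 of 33 and lower in 15. The Eph receptors were lower in both batches in 8 of 14 cases, or 57.1%. Of the members called higher both with the block and by DESeq2, Efna5 had log2 ratios of 0.56 and 0.29, and Efnb2 had 0.29 and 0.25. Sema5b, called higher with the block only, had 0.22 and 0.53.

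**Figure D5:**
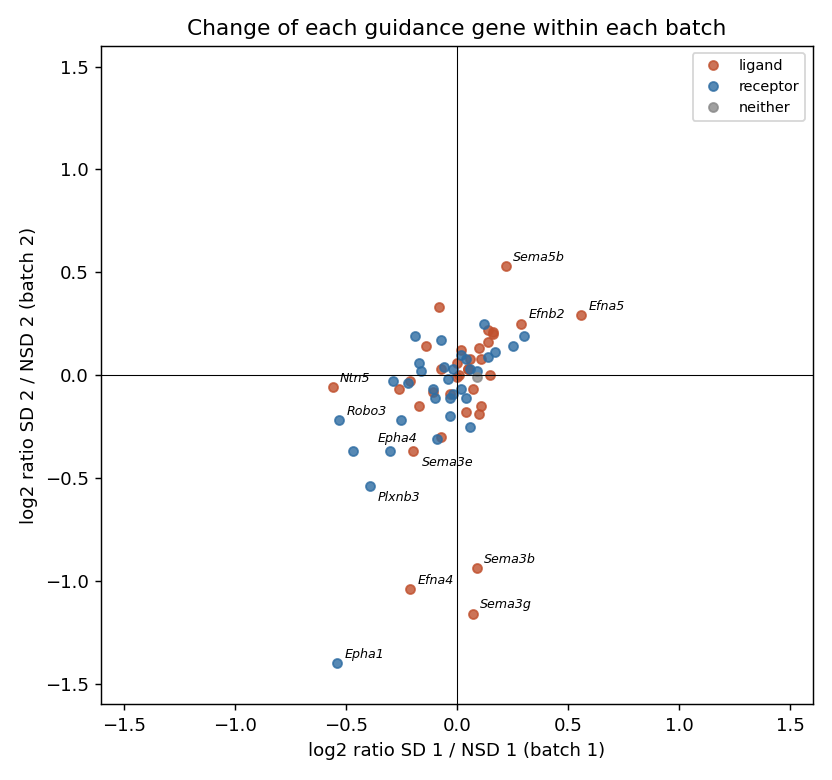
Log2 ratio of SD to NSD within batch 1 (horizontal axis) and batch 2 (vertical axis) for the 69 members tested, with ligands in orange, receptors in blue and Unc50 in grey. Efna5, Efnb2 and Sema5b lie to the upper right and Epha4, Sema3e, Robo3 and Plxnb3 to the lower left, and the points far below 0 in batch 2 (Epha1, Sema3g, Efna4 and Sema3b) are genes under 2 CPM.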

How the data were processed

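RNA pulled down with tagged ribosomes from CA1 tissue was sequenced in 4 libraries, each pooled from 5 mice. After trimming and alignment with STAR 2.7.8a, the authors quantified genes in Partek Flow by expectation-maximization (GRCm39, Ensembl release 110) and deposited the estimated counts without normalization. The library kit keeps strand, but whether the counting used it is not given in the sources used here, so genes that overlap on opposite strands are uncertain. Estimated counts were rounded and tested with edgeR 4.0.16 in R 4.3.3 (TMM, quasi-likelihood, condition as the only term, adjustment over all genes). The p-values measure the spread between pooled libraries. DESeq2 1.42.0 was an alternative, beside edgeR with the size factors of DESeq2, filterByExpr, no count filter, protein-coding genes only, no fold change threshold, counts per kilobase, each library left out and the batch as a replicate block. The scripts were tested on simulated data.

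The labels give same-numbered libraries 1 batch number, so the numbers pair them, and across genes their deviations from the group means were correlated at 0.221. Exon lengths came from the GENCODE annotation of GRCm39. The members and lists were chosen with earlier results of these data known. Members named are those called in any of edgeR, edgeR with the block or DESeq2, the highest per kilobase and the most changed of each family, and the member below the count filter. Other members with printed values, such as Epha5, Efnb1, Plxnd1, Robo1, Slit3 and Dcc, complete a family or a ligand and receptor pair and were chosen after their values were seen. From the other lists, called genes and defining markers are named. Pdzd2 of the 8 CA3 and dentate gyrus markers was called higher (adjusted p = 0.04, edgeR), and Sst of the 8 interneuron markers and the mural gene Pdgfrb were called lower with the block (adjusted p = 0.0118 and 0.0189). The astrocyte and microglia markers (7 and 6 genes) had no call by edgeR, with the block or by DESeq2, and 1 and 0 at an unadjusted p under 0.05. The result of 1 marker gene is not reported here.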

Additional observations from a re-analysis of the deposited data

How the results depend on the processing

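With the batch as a replicate block, the members called rose from 1 to 3 higher and from 0 to 4 lower, and the genes called in the list of co-receptors and downstream genes from 1 to 5. DESeq2 gave 2 higher, 1 lower and 6. With no count filter, with filterByExpr and with protein-coding genes only, 0 members and 0 downstream genes were called. When each library was left out in turn, which assumes that the lone library left varies like the other group, 0 to 1 members were called higher, 0 to 1 lower, and 1 to 3 downstream genes. The median log2 fold change of the ligands ran from 0.0047 to 0.037 and that of the receptors from -0.043 to 3.7e-05 over these 4 fits. The receptor median was -0.032 by DESeq2 and with its size factors, -0.026 with no filter and -0.075 with protein-coding genes only. The ligand share differed by 1.4 percentage points per kilobase.

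The named members that changed sign had log2 fold changes under 0.1 in size, apart from Efna4 (-0.50). Efna3 was at 0.00 with the block, 0.02 with DESeq2 and with its size factors, 0.03 with no filter and 0.01 with filterByExpr, Ntn3 at 0.00, 0.00 and 0.01 (DESeq2, its size factors, no filter), Sema7a at 0.02, 0.02, 0.03 and 0.00 (the same 3 and filterByExpr) and Sema6b at -0.02 with protein-coding genes only. With single libraries left out, the log2 fold change ran from -0.02 to 0.05 for Efna3, -1.31 to 0.04 for Efna4, -0.01 to 0.17 for Efnb3, -0.10 to 0.05 for Ephb6, -0.11 to 0.24 for Nrp2, -0.10 to 0.08 for Ntn3, -0.07 to 0.16 for Sema5a, -0.03 to 0.06 for Sema6b, -0.04 to 0.06 for Sema7a and -0.08 to 0.19 for Unc50. None of these was called, and the cause was not tested. The block changed no other call of a named member. Members under 1 CPM per kilobase rest on few counts, and all standard errors rest on 2 libraries per group.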

Other observations

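The name stem also matched 2 long non-coding RNA genes named as opposite-strand transcripts of the plexin gene Plxna4, which are not among the members. Of all genes tested, 8.47% were called lower with the block and 5.79% by DESeq2, beside 3.29% and 1.79% of protein-coding genes. Plxna4os2 was at 2.17 and 0.732 CPM in NSD and 0.57 and 0.286 CPM in SD. It was called lower with the batch as a block (edgeR adjusted p = 0.0036) and by DESeq2 (adjusted p = 0.0198). Without the block its log2 fold change of -1.76 (standard error 0.549) had an edgeR adjusted p of 0.121, and it ran from -0.75 without NSD 1, where it was not called, to -2.34 without NSD 2, where it was. Plxna4os1 was at 0.717 and 0.375 CPM in NSD and 0.254 and 0.174 CPM in SD, with an edgeR adjusted p of 0.178 and of 0.0695 with the block. Plxna4 itself had overlapping groups.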
